A study of Mus musculus with 24 samples.

Results

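The genes described here are Hmgcs1, Idi1, Fdft1, Sqle, Lss, Cyp51 and Dhcr7, which encode enzymes of cholesterol synthesis, and Insig1, which encodes a sterol-regulated brake on that pathway. They were chosen by name: every probe of the array that is not a control and carries one of the 8 gene names was taken, which gave 18 of the 41174 probes measured. All 8 genes were among the 20410 genes tested. The RNA came from mouse lung sampled 24 days after irradiation in 12 groups of 2 arrays each, hybridised to 24 single-colour Agilent arrays, and the series names radiation-induced pulmonary fibrosis and combined inhibition of TGFβ and PDGF signalling as its subject. The 6 groups without irradiation were untreated lung and lung of mice given 1 drug (Ly, Su or Imatinib) or Ly combined with Imatinib (Ly+Imatinib) or with Su (Ly+Su). The other 6 groups received irradiation alone, called IR here, or irradiation with one of the same 5 treatments, called IR+Ly, IR+Imatinib, IR+Su, IR+Ly+Imatinib and IR+Ly+Su. Each drug treatment with its irradiated counterpart is called an arm. Imatinib is a tyrosine kinase inhibitor that acts on PDGF receptors among other kinases, while Ly and Su are given by these names only. Strain, age, sex, radiation dose, drug dose and the part of the lung sampled are not given in the sources used here. The labels call the 2 samples of each group biological replicates. Group differences therefore rest on a small number of samples, and this number limits their precision.

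Cholesterol is built from acetyl-CoA through the mevalonate pathway. Hmgcs1 makes HMG-CoA, Idi1 interconverts the activated isoprene units, Fdft1 joins farnesyl diphosphates to squalene, Sqle oxidises squalene, Lss closes the sterol rings to lanosterol, Cyp51 removes a methyl group from lanosterol, and Dhcr7 catalyses the last reduction to cholesterol. When membrane sterol is scarce, the transcription factor SREBP-2 is carried from the endoplasmic reticulum to the Golgi, cut and sent to the nucleus, where it binds sterol regulatory elements beside NF-Y and Sp1 sites. Insig1 retains the SREBP complex in the endoplasmic reticulum when sterol is plentiful, and its gene is itself an SREBP target. In the lung, type II epithelial cells make lipid for surfactant, and alveolar macrophages take up and export it.

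The proximal promoters of the 4 genes that passed the test in at least one irradiation comparison are shown because these genes share known SREBP-2 control and moved in partly different groups. RefSeq promoter sequences of the build GRCm38.p6 matched 6 of the 8 genes by symbol. Shown are the 250 bases before the gene start, 5′ to 3′. Capitals mark 3 motifs, each searched on both strands: TCACNCCAC, a sterol regulatory element, CCAAT, the core bound by NF-Y, and GGGCGG, the core bound by Sp1. Dhcr7 has 3 annotated starts, and the window of the third, which held the most of these motifs, is given.
Hmgcs1, chr13:119690101-119690350, plus strand: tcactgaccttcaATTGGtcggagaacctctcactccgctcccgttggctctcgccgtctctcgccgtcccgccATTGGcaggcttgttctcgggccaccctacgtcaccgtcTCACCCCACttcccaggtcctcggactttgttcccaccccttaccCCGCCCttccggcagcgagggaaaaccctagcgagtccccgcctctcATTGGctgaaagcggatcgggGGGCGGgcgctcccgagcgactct
Idi1, chr13:8885356-8885605, plus strand: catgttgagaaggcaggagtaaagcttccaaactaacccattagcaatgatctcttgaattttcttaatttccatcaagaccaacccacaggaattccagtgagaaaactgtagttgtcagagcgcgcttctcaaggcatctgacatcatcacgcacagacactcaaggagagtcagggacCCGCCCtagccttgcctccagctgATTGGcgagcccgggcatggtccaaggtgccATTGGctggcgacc
Cyp51, chr5:4104698-4104947, minus strand: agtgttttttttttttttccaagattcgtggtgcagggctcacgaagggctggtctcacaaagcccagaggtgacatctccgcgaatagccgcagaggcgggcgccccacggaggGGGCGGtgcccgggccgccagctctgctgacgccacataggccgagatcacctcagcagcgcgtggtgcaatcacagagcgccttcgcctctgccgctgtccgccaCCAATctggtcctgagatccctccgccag
Dhcr7, chr7:143829964-143830213, plus strand: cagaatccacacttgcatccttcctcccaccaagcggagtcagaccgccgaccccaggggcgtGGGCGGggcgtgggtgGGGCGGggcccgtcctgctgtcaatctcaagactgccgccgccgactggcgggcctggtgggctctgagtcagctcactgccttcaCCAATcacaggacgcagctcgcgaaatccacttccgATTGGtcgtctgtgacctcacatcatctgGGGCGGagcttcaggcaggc
The searched form of the sterol regulatory element, TCACNCCAC, was found once, in Hmgcs1, where TCACCCCAC begins 137 bases before the start. The form occurred in 1.05% of all 32851 windows of the same length. Other forms of the element were not searched. CCAAT or its reverse complement was present in at least 1 window for 6 of the 6 genes with a window, against 33.8% of all single windows. GGGCGG was also present in this way for 6 of the 6 genes, against 32.7% of all single windows. Dhcr7 counted through any of its 3 windows, so the gene counts and the shares of windows are not alike. Hmgcs1 held 3 CCAAT motifs, and the third Dhcr7 window held 2, at 85 and 49 bases before its start. The first Dhcr7 window held no CCAAT motif and the second held none of the 3 motifs. A match describes the letters and says nothing about binding.

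Expression is given as a level, the log2 intensity of a probe minus the 75th percentile of log2 intensities of its array, so that 0 is the brightness below which 75% of that array's probes lie. Levels of different genes come from different probes and were not compared with each other. A difference is a difference of mean levels on the log2 scale, with its standard error from limma fitted to all 20410 genes and 12 groups. A gene is said to have risen or fallen where the p-value adjusted over all genes by the Benjamini-Hochberg method was below 0.05. Where a gene had several probes, the brightest probe without a flagged spot was tested.

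The lung label fitted the markers: the mean level of 10 alveolar type II genes, among them the surfactant protein genes, lay between 4.25 and 5.06 on all 24 arrays. The arrays were hybridised on 6 slides of 4. Each slide carried either irradiated or unirradiated lung, so slide and irradiation cannot be told apart. Untreated and Ly, IR and IR+Ly, and each Imatinib group with its Su counterpart did share a slide. All groups given Imatinib or Su lay on other slides than the groups with neither, so differences between them are also slide differences. The arrays of the first IR and the first IR+Ly+Imatinib sample, written here as IR 1 and IR+Ly+Imatinib 1, stood apart. The 75th percentile of IR 1 was an intensity of 2518 against 704 to 1768 on the other arrays, and its spike-in controls were the dimmest. IR+Ly+Imatinib 1 had 330 flagged spots, where the others had 5 to 80. Results on the 8 genes that rest on IR 1 or IR+Ly+Imatinib 1 are given with and without them. The second IR+Ly+Imatinib array and both IR+Ly+Su arrays differed in background. Their negative control medians were 2.65 to 2.95, against 4.38 to 12.38 elsewhere. Of their spots 75.9% to 78.5% were well above background, against 62.0% to 73.3% elsewhere. No fit left these arrays out together. In this bulk tissue, a change in the number of cells of a type and a change in RNA per cell cannot be told apart.

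Across the 6 arms, the tested probes of Cyp51, Hmgcs1 and Dhcr7 were higher in irradiated than in unirradiated lung. The rise of Hmgcs1 was not seen on its brightest probe, and Dhcr7 did not pass with slide as a random block. Cyp51 rose by 0.47 ± 0.08 (SE, 12 arrays against 12, adjusted p = 0.00058), or 1.38-fold. Hmgcs1 rose by 0.55 ± 0.11, or 1.47-fold (adjusted p = 0.00207), and Dhcr7 by 0.20 ± 0.07, or 1.15-fold (adjusted p = 0.0424). Thus 3 of the 8 genes rose and 0 fell, where 16.4% of all genes tested rose, 16.4% fell and 32.8% passed in either direction. The share among the 8 genes was near this background. Their median difference was 0.11, against 0.01 over all genes. The other members did not pass: Fdft1 differed by 0.13, Idi1 by 0.10, Sqle by 0.09, Insig1 by 0.03 and Lss by -0.12, with adjusted p between 0.146 and 0.878.

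Cyp51, the lanosterol demethylase, had irradiated and unirradiated arrays separated upward in more arms than any other of the 8 genes. Its levels were -1.87 and -1.81 in untreated lung and -1.10 and -1.34 in IR. In the Imatinib arm they were -1.95 and -1.91 without and -1.55 and -1.30 with irradiation. The Su arm gave -1.97 and -2.12 without and -1.61 and -1.43 with irradiation. In each of these arms both irradiated arrays lay above both unirradiated arrays. The same held for Ly+Imatinib, with -1.69 and -1.70 against -0.77 and -1.35, and for Ly+Su, with -1.74 and -1.81 against -1.64 and -1.47. In the Ly arm the arrays overlapped, with -1.98 and -1.82 against -1.87 and -1.34. The groups were thus separated upward in 5 of 6 arms, as were those of 6.02% of all genes tested in at least 5 arms. The differences of single arms ran from 0.22 in Ly+Su to 0.64 in Ly+Imatinib.

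The pooled difference of Cyp51 did not rest on a single probe. All 3 of its probes rose, by 0.47, 0.44 ± 0.09 and 0.47 ± 0.15, with adjusted p over all probes of 0.000718, 0.00316 and 0.0257. Without IR 1 and IR+Ly+Imatinib 1 it was 0.40 ± 0.07 (adjusted p = 0.00117), and with slide as a random block its adjusted p was 0.00381. With normexp background correction, which models background light in place of the scanner's own correction, the difference was 0.24 and missed the threshold (adjusted p = 0.217).

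Hmgcs1, the first enzyme of the series, carries a limit of its probes. Its brightest probe had flagged spots on both IR+Ly+Imatinib arrays and was set aside, so the tested probe was a dim one, with levels from -4.90 to -3.06. On that probe the levels were -4.32 and -4.31 in untreated lung and -3.23 and -3.87 in IR. They were -4.00 and -4.00 in Ly+Imatinib and -3.06 and -3.50 in IR+Ly+Imatinib. Both irradiated arrays lay above both unirradiated arrays in 4 of 6 arms, as in 14.8% of all genes tested for at least 4 arms. The arrays overlapped in the Ly arm (-4.32 and -4.50 against -4.41 and -3.79) and in the Imatinib arm (-4.00 and -4.14 against -4.04 and -3.61).

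The other dim Hmgcs1 probe also rose over the 6 arms, by 0.39 ± 0.09 (adjusted p over all probes 0.00706), but differed by -0.02 ± 0.23 between IR and untreated lung. With flagged spots kept, the bright probe differed by only 0.08 ± 0.05 over the 6 arms and did not pass (adjusted p = 0.291). On that probe untreated lung measured 3.17 and 2.95 and IR 3.74 and 3.45, while IR+Su measured 3.22 and 3.08 against 3.43 and 3.28 in Su. With normexp the dim probe's difference turned to -0.14 (adjusted p = 0.686). The rise of Hmgcs1 over the 6 arms was thus seen on its dim probes with the scanner's background correction and not on the bright one.

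**Figure D1:**
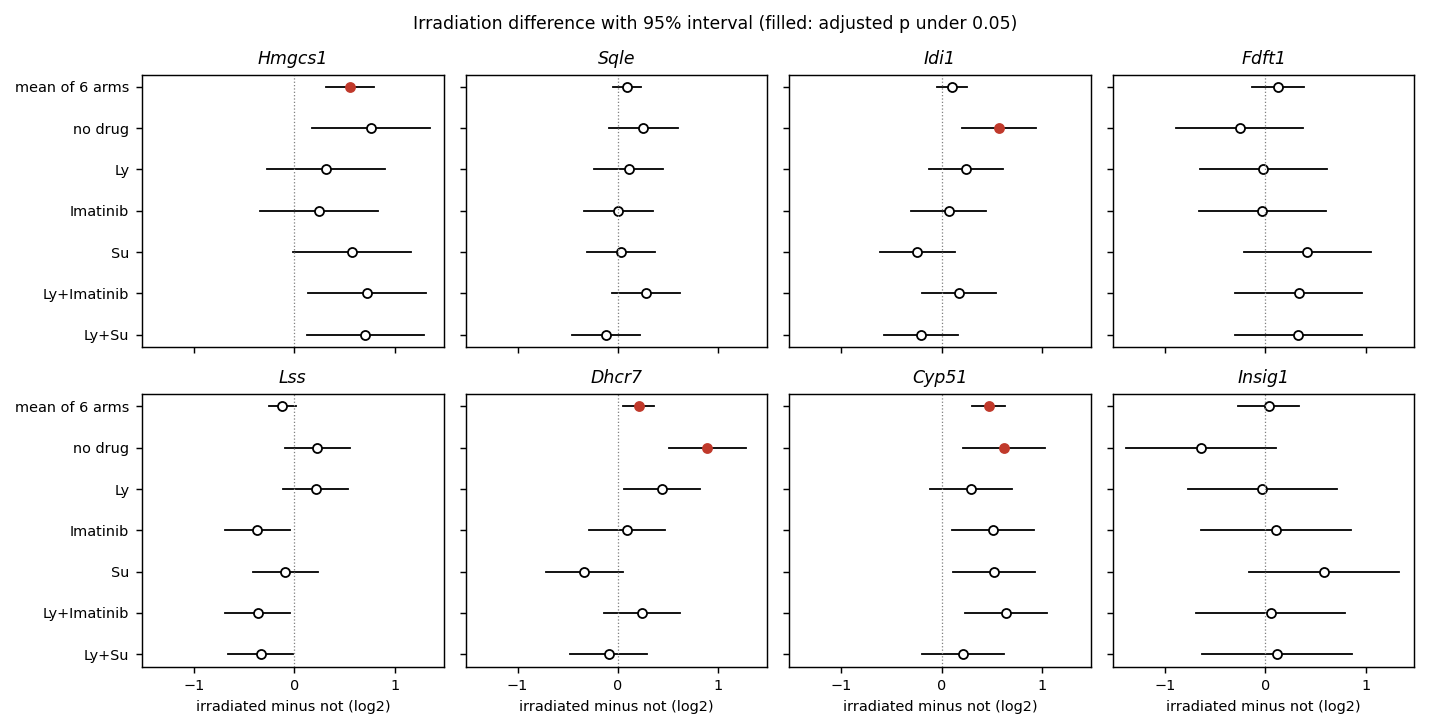
Irradiated minus unirradiated level (log2) of each gene, as the mean of the 6 arms and in each arm, with the 95% interval from limma, filled where the adjusted p was below 0.05. Hmgcs1 and Cyp51 lie above 0 in each of the 6 arms, while the points of Dhcr7 run from 0.89 in the arm without drug to -0.33 in the Su arm.

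Cyp51 and Hmgcs1 were the 2 members whose difference was positive in 6 of 6 arms, from 0.24 to 0.76 for Hmgcs1. Over all genes, 10% were positive in 6 arms and 11.5% negative in 6 arms. Dhcr7, Idi1 and Insig1 were positive in 4 arms, Sqle in 5, Fdft1 in 3 and Lss in 2. Counted over the 6 arms one at a time, 3 of 48 gene-by-arm differences passed, all of them higher and all in the arm without drug, where 5.76% of such tests passed over all genes. In the other 5 arms 0 of 8 genes passed, where the call rate over all genes was 0.0441% for Ly, 2.81% for Imatinib, 10.4% for Su, 3.58% for Ly+Imatinib and 3.38% for Ly+Su. At an unadjusted p below 0.05 the counts in these arms were 1, 2, 1, 3 and 2 of the 8 genes. Over all 20410 genes they were 1172, 3779, 5574, 4158 and 3624. Without IR 1 and IR+Ly+Imatinib 1, Cyp51 and Insig1 passed in the Su arm, at 0.53 (adjusted p = 0.0355) and 0.58 (adjusted p = 0.04), where 18.6% of all genes did. Insig1 measured -1.90 and -1.79 in Su and -1.12 and -1.40 in IR+Su, so both irradiated arrays were higher.

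The single-arm changes that passed were in irradiated lung without drug. On the tested probes, IR had more Dhcr7, Cyp51 and Idi1 RNA than untreated lung. Of the 8 genes 3 rose and 0 fell, against 7.1% of all genes that rose and 14.4% called in either direction. The median difference of the 8 genes was 0.41, against -0.0049 over all genes. Dhcr7, the last enzyme of the pathway, measured 1.60 and 1.19 in untreated lung and 2.57 and 2.01 in IR. It rose by 0.89 ± 0.18, or 1.85-fold (adjusted p = 0.0101). Both IR arrays lay above all other arrays of the experiment. Idi1, the isomerase of the isoprene units, measured 1.83 and 1.46 in untreated lung and 2.40 and 2.04 in IR, again above every other array. It rose by 0.57 ± 0.17, or 1.48-fold (adjusted p = 0.0422). Cyp51 rose by 0.62 ± 0.19, or 1.54-fold (adjusted p = 0.0441).

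Of the remaining genes, Hmgcs1 differed by 0.76 ± 0.27 and missed the threshold (adjusted p = 0.0732), although both IR arrays were higher. Sqle, squalene epoxidase, measured 1.87 and 1.63 in untreated lung and 2.15 and 1.85 in IR, so its arrays overlapped (difference 0.25 ± 0.16, adjusted p = 0.278). Lss, lanosterol synthase, differed by 0.23 ± 0.15 (adjusted p = 0.303) and Fdft1, squalene synthase, by -0.26 ± 0.30 (adjusted p = 0.569). Insig1 measured -1.34 and -1.20 in untreated lung and -2.71 and -1.11 in IR. The lowest of all Insig1 values was thus IR 1, with the other IR array inside the untreated spread, and the difference of -0.64 ± 0.35 did not pass (adjusted p = 0.209).

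The standard errors of these single-arm calls assume 1 spread for all groups. Within IR the SD was 0.40 for Dhcr7, 0.26 for Idi1 and 0.17 for Cyp51, against pooled SDs of 0.17, 0.17 and 0.19. These calls also depended on single arrays. All 3 were lost without IR 1 and also without the second untreated array, and that of Cyp51 also without the first. Without IR 1 and IR+Ly+Imatinib 1, 0 of 8 genes passed between IR and untreated lung, and 0.975% of all genes did. The differences then were 0.61 for Dhcr7 (adjusted p = 0.104), 0.50 for Cyp51 (adjusted p = 0.211) and 0.39 for Idi1 (adjusted p = 0.318). Insig1 then differed by 0.16 in the other direction (adjusted p = 0.772). Over the 6 arms, 2 of 8 genes, Cyp51 and Hmgcs1, still passed without these 2 arrays, where 35.9% of all genes did, and Dhcr7 did not (0.13, adjusted p = 0.0967). The Dhcr7 call over the 6 arms was lost in 17 of the 24 fits that leave out 1 array. With slide as a random block, Dhcr7 did not pass over the 6 arms either (adjusted p = 0.287).

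The additional probes of each gene gave part of the same picture. Of the 17 probes without flagged spots, 7 rose over the 6 arms and 0 fell, and these belonged to Hmgcs1, Cyp51 and Dhcr7. Of all 30486 probes tested, 16.6% rose and 13.1% fell. Probes of 1 gene read the same samples and are not independent. The second Dhcr7 probe rose over the 6 arms by 0.41 ± 0.10 (adjusted p = 0.00784), and between IR and untreated lung differed by 0.52 ± 0.25 (adjusted p = 0.16). The second Idi1 probe, which is dimmer, differed by -0.53 ± 0.43 between IR and untreated lung (adjusted p = 0.4), opposite to the tested probe. Over the 24 arrays these 2 Idi1 probes had a correlation of -0.17, and of 0.71 without IR 1. Of the 3 Cyp51 probes 2 rose between IR and untreated lung, and the third differed downward, by -0.37 ± 0.36. The second had mean levels of -2.51 in untreated lung and -1.66 in IR, with an SD of 0.53 within IR. The 2 dimmer Lss probes had a correlation of 0.95 with each other and of -0.36 and -0.39 with the tested one, so the direction of Lss depends on the probe. The 2 Insig1 probes ran together, at 0.83. The second Fdft1 probe was well above background on 12 of the 24 arrays, and the others of the 18 on all.

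**Figure D2:**
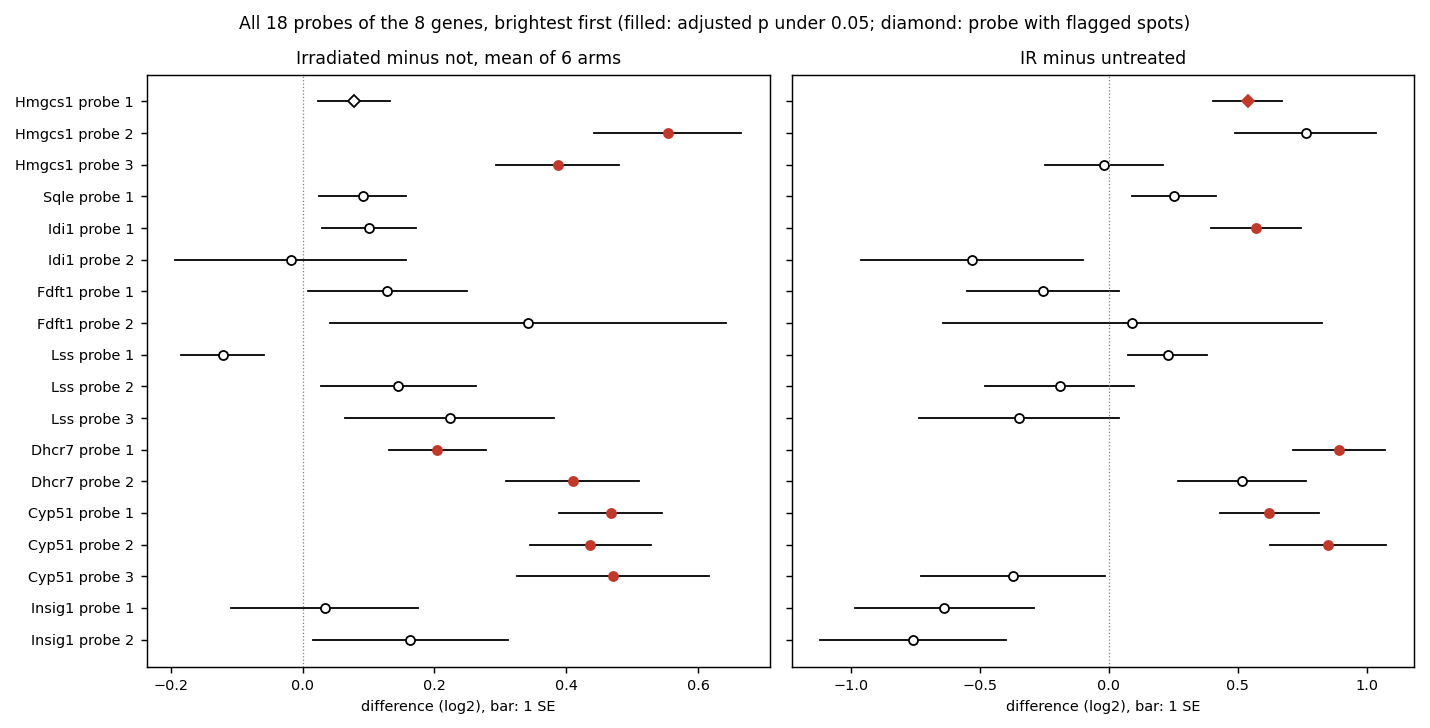
Difference (log2, bars of 1 SE) at each of the 18 probes of the 8 genes, brightest first, over the 6 arms on the left and for IR minus untreated on the right, filled where the adjusted p over all probes was below 0.05, with a diamond for the Hmgcs1 probe that had flagged spots. All 3 Cyp51 probes lie between 0.44 and 0.47 on the left. On the right the second Idi1 probe and the third Cyp51 probe lie below 0, with the brighter probes of both genes above. Dimmer probes of Hmgcs1 and Lss also lie below 0 there.

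Among irradiated lungs, the tested probes of Dhcr7 and Idi1 were lower in IR+Imatinib, IR+Su and IR+Ly+Su than in IR. These groups lay on other slides than IR, so drug and slide cannot be told apart in these falls. In IR+Imatinib Dhcr7 measured 1.58 and 1.70 and fell by 0.65 ± 0.18 against IR (adjusted p = 0.0323), and Idi1 measured 1.65 and 1.56 and fell by 0.62 ± 0.17 (adjusted p = 0.0352). In IR+Su Dhcr7 measured 1.38 and 1.23 and fell by 0.98 ± 0.18 (adjusted p = 0.0028), and Idi1 measured 1.57 and 1.30 and fell by 0.78 ± 0.17 (adjusted p = 0.00705). In IR+Ly+Su Dhcr7 measured 1.41 and 1.62 and fell by 0.78 ± 0.18 (adjusted p = 0.00768), and Idi1 measured 1.50 and 1.66 and fell by 0.64 ± 0.17 (adjusted p = 0.017). In each of these 3 groups both arrays lay below both IR arrays. The second, dimmer probes did not show these falls. The second Idi1 probe differed upward in the same 3 groups by 0.69, 0.49 and 0.52, and the second Dhcr7 probe by 0.15, -0.12 and 0.18, and none of these passed.

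Over the 5 drug groups together 6 of 40 gene-by-group differences passed, all lower, against 17.5% over all genes. The counts were 2 of 8 genes lower and 0 higher in each of IR+Imatinib, IR+Su and IR+Ly+Su against IR. The background was 4.91%, 14.8% and 11.9% of all genes lower, and 13.3%, 25.8% and 28.2% in either direction. IR+Ly against IR gave 0 of 8 genes, with 0.921% of all genes called, and IR+Ly+Imatinib against IR gave 0 of 8, with 19.5% called. At an unadjusted p below 0.05 these counts were 3 and 4 of the 8 genes, and 5060 and 7720 of all 20410 genes. Dhcr7 measured 1.62 and 1.79 in IR+Ly and 1.94 and 1.67 in IR+Ly+Imatinib, which are differences of -0.59 ± 0.18 (adjusted p = 0.0971) and -0.49 ± 0.18 (adjusted p = 0.0658). Idi1 differed by -0.69 ± 0.17 in IR+Ly (adjusted p = 0.0705) and by -0.41 ± 0.17 in IR+Ly+Imatinib (adjusted p = 0.0999). The median difference of the 8 genes from IR was -0.38 in IR+Ly, -0.28 in IR+Imatinib, -0.31 in IR+Su, 0.05 in IR+Ly+Imatinib and -0.32 in IR+Ly+Su, where the medians over all genes lay between -0.05 and 0.05. The 5 comparisons share the 2 IR arrays and are not independent.

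The tested probes of Cyp51 and Hmgcs1 did not pass against IR in any drug group. Cyp51 ran from -0.39 in IR+Ly to 0.16 in IR+Ly+Imatinib, and Hmgcs1 from -0.54 to 0.27 in the same groups. Their other probes passed in opposite directions. The second Cyp51 probe fell by 0.71 in IR+Su (adjusted p over all probes 0.0342) and the third rose by 1.14 in IR+Ly+Imatinib (0.0408). The third Hmgcs1 probe rose by 0.75, 0.79 and 0.66 in IR+Su, IR+Ly+Imatinib and IR+Ly+Su (0.0298, 0.0322 and 0.0462). The bright Hmgcs1 probe, with flagged spots kept, fell by 0.45 in IR+Su (0.0265) and by 0.39 in IR+Ly+Su (0.0433). Sqle was between -0.37 and -0.05 and Lss between -0.35 and -0.23. Insig1 was higher in all 5 drug groups by 0.57 to 0.84 without passing, and its IR mean holds the low value of IR 1. Fdft1 differed by 0.19 to 0.56.

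**Figure D3:**
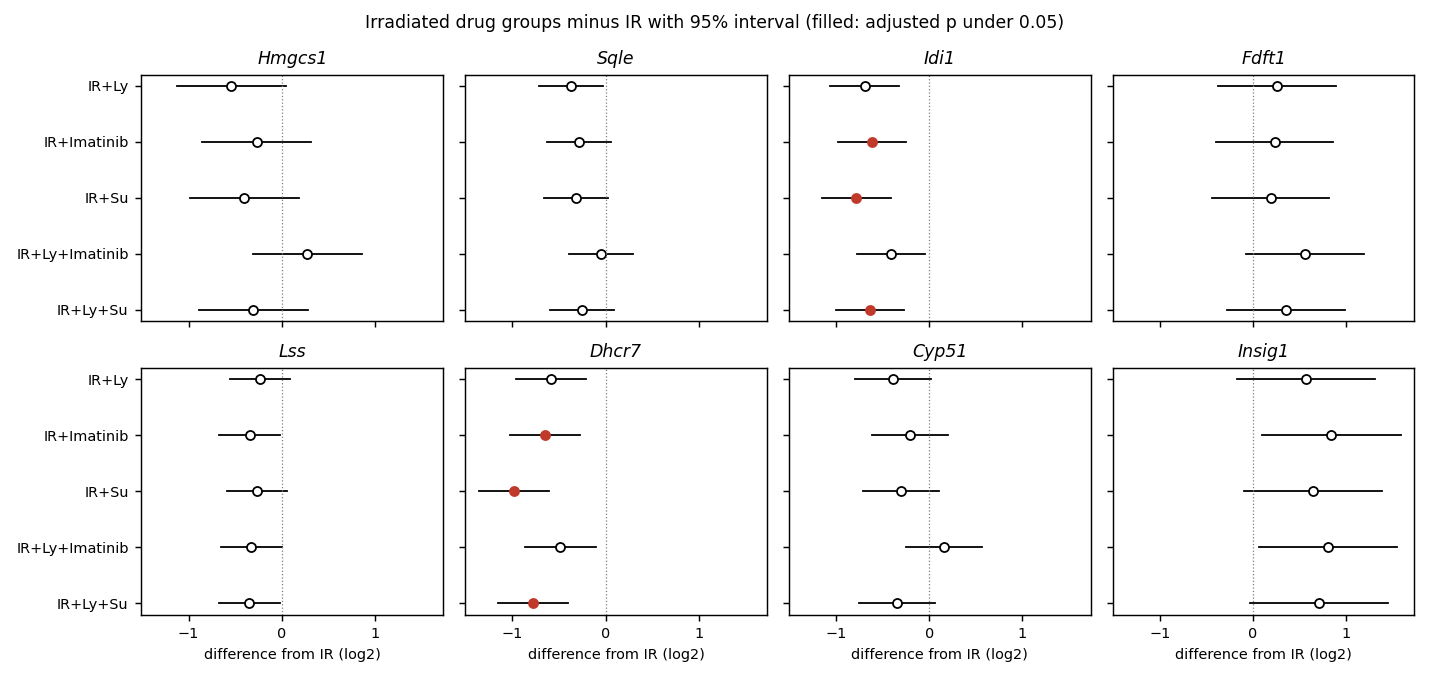
Level of each gene in the 5 irradiated drug groups minus IR (log2) with the 95% interval from limma, filled where the adjusted p was below 0.05. Idi1 and Dhcr7 are the genes with filled points, between -0.98 and -0.62 in IR+Imatinib, IR+Su and IR+Ly+Su.

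These falls also depended on single arrays. Without IR 1 all were lost except that of Dhcr7 in IR+Su, which held with each of the 4 arrays left out. Those of Idi1 and Dhcr7 in IR+Imatinib and of Idi1 in IR+Ly+Su were also lost without either drug array, that of Idi1 in IR+Su without the second IR+Su array and that of Dhcr7 in IR+Ly+Su without the first IR+Ly+Su array. Without IR 1 and IR+Ly+Imatinib 1, Dhcr7 in IR+Su was the 1 of 6 calls that passed, at -0.70 ± 0.17 (adjusted p = 0.0272), against 7.71% of all genes. In IR+Ly+Su Dhcr7 then differed by -0.49 (adjusted p = 0.0808) and in IR+Imatinib by -0.37 (adjusted p = 0.298). Idi1 then differed by -0.60, -0.46 and -0.44 in IR+Su, IR+Ly+Su and IR+Imatinib, with adjusted p of 0.0659, 0.136 and 0.267.

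Markers of several cell types differed between the same groups. Between IR and untreated lung, 10 of 13 macrophage genes rose. Of all genes 7.1% rose there, and 14.4% passed in either direction. The marker counts were not taken without IR 1. The mean level of that list was 2.03 and 2.51 on the IR arrays, the highest of all, against 0.51 and 0.66 in untreated lung. In IR+Imatinib it was 0.91 and 1.37, in IR+Su 0.76 and 0.96, and in IR+Ly+Su 0.79 and 0.83. Against IR, 5 of the 13 fell in IR+Imatinib, 10 in IR+Su and 10 in IR+Ly+Su, where 4.91%, 14.8% and 11.9% of all genes fell. Fibroblast markers were between 1.13 and 1.66 in mean level in IR, against 0.56 to 0.62 in untreated lung, 0.53 to 0.82 in IR+Su and 0.67 in IR+Ly+Su, and 3 of 8 rose between IR and untreated lung. Endothelial markers were 2.42 and 3.05 in IR, against 3.37 to 3.39 in untreated lung and 3.13 to 3.44 in the other irradiated groups, and 3 of 7 fell between IR and untreated lung. Erythroid markers were between -0.33 and 0.21 in IR and between 2.07 and 2.26 in untreated lung, and 3 of 4 fell. B cell markers were between -1.53 and -1.34 in IR and between 0.13 and 0.87 in IR+Su and IR+Ly+Su, where 5 of 5 rose against IR. In these 2 comparisons 25.8% and 28.2% of all genes passed in either direction. Over the 6 arms, 8 of 13 macrophage genes and 10 of 12 proliferation genes rose with irradiation, where 16.4% of all genes rose. The mean level of the proliferation list was between -1.86 and -1.34 in unirradiated and between -1.59 and 0.22 in irradiated lung. It did not set IR apart from the drug groups, with -1.59 and -0.10 in IR and -0.99 and -0.70 in IR+Su. Of 10 alveolar type II genes, 1 rose over the 6 arms and 0 passed between IR and untreated lung. The part of these cell markers in the differences of Cyp51, Dhcr7 and Idi1 was not tested.

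Without irradiation, the drugs left the 8 genes without a call. Each of the 5 drug groups against untreated lung gave 0 of 8 genes. Over all genes, 0.0049% were called for Ly, 0.333% for Imatinib, 2.73% for Su, 2.47% for Ly+Imatinib and 0.701% for Ly+Su, and 1.25% over the 5 together. With limma on all groups the count at an unadjusted p below 0.05 was also 0 in each. Over all 20410 genes it was 1158, 2112, 3538, 3501 and 2698. With limma on the 2 groups alone 0 of all genes passed in each, and 1 of the 8 had an unadjusted p below 0.05 for Su and 1 for Ly+Imatinib. Differences of single genes ran from -0.58 for Insig1 in Su to 0.32 for Hmgcs1 in Ly+Imatinib. Insig1 was below both untreated arrays in both Su arrays. Fdft1 measured 0.05 and 0.13 in Su against 0.36 and 0.78 in untreated lung. Neither passed (adjusted p = 0.423 and 0.432). Ly lung had the lowest group mean of Sqle, Idi1, Lss and Dhcr7. Idi1 measured 1.43 and 1.14 there, below both untreated arrays, and its difference of -0.36 did not pass, with a 95% interval from -0.73 to 0.01. Dhcr7 measured 1.27 and 1.26, between the 2 untreated arrays.

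Averaged over settings, no drug difference passed on the tested probes of the 8 genes. Of their 17 probes without flagged spots 1 passed, the other dim Hmgcs1 probe, which was higher with Imatinib over the 4 settings. Of all 30486 probes, 6.93% rose in that comparison. Over 6 settings, Ly gave differences between -0.08 and 0.18 and 0 of 8 calls, with 7.6% of all genes called. Over 4 settings, Imatinib against the groups with neither Imatinib nor Su gave -0.03 to 0.33 and 0 of 8, with 10.8% of all genes called. Su against the same groups gave -0.15 to 0.05 and 0 of 8, with 18.5% called. Ly against no drug, over irradiated and unirradiated lung, gave 0 of 8, with 0.0784% called, and Idi1 had the largest difference, -0.53 (adjusted p = 0.0909). At an unadjusted p below 0.05 these counts were 0, 1, 0 and 3 of the 8 genes. Over all 20410 genes they were 4083, 5698, 6713 and 3677.

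Imatinib and Su could be compared on shared slides. All 8 genes were nominally higher with Imatinib than with Su on average over the 4 settings, by 0.02 to 0.44. Without IR 1 and IR+Ly+Imatinib 1, Sqle differed by -0.025 and Idi1 by -0.021, and the others stayed higher. On all arrays 0 of 8 passed, with 0.108% of all genes called. An unadjusted p below 0.05 was found for 1 of the 8 genes and for 2439 of all 20410 genes. The largest difference was that of Hmgcs1, 0.44 ± 0.14 (adjusted p = 0.241). The 95% interval of the difference ran from -0.07 to 0.31 for Dhcr7 and from -0.01 to 0.40 for Cyp51, so differences within these bounds could not be resolved. Hmgcs1 was higher with Imatinib in each of the 4 settings, by 0.13 to 0.58.

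Whether irradiation acted differently by arm was tested with the interaction of irradiation and arm. Of the 8 genes 0 passed, where 1.07% of all genes did. At an unadjusted p below 0.05 there were 3, and the count over all genes at that p was not taken. Dhcr7 came nearest (limma adjusted p = 0.112), followed by Lss (adjusted p = 0.224) and Idi1 (adjusted p = 0.257). Cyp51 and Hmgcs1 had adjusted p of 0.716 and 0.783. Lss measured 0.40 and 0.22 in Imatinib against 0.10 and -0.22 in IR+Imatinib, and 0.32 and 0.33 in Ly+Imatinib against -0.04 and -0.04 in IR+Ly+Imatinib. In 4 of the 6 arms both irradiated Lss arrays were the lower ones, and in the Ly arm they were the higher ones, at 0.07 and 0.02 against -0.14 and -0.19.

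The order of the group means showed few steps beyond replicate spread. IR had the highest mean of Sqle, Idi1 and Dhcr7, and IR+Ly+Imatinib that of Hmgcs1, Fdft1 and Cyp51. For Dhcr7 the step from IR, at 2.29, to the next group was 0.49, against a pooled within-group SD of 0.17. For Idi1 the step below IR, at 2.22, was 0.41, against an SD of 0.17. Each of Idi1, Lss, Dhcr7, Cyp51 and Insig1 had 1 of 11 neighbouring gaps wider than its SD, and Hmgcs1, Sqle and Fdft1 had 0. The IR+Ly+Imatinib mean of Cyp51, -1.06, was 0.16 above that of IR and joined a value of -0.77 on IR+Ly+Imatinib 1 to one of -1.35.

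Across the 24 arrays the 8 genes did not vary as one block. The 28 pairwise correlations ran from -0.53 to 0.88 with a median of 0.35, and 18 were positive. Idi1 and Dhcr7 were most alike, at 0.88, followed by Hmgcs1 and Cyp51 at 0.86 and Fdft1 and Insig1 at 0.76. Sqle was nearest to Dhcr7, at 0.68, and Lss to Idi1, at 0.52. Without IR 1 and IR+Ly+Imatinib 1 the median was 0.34 and the highest 0.80. The points share array, slide and scaling, and these correlations are a description. The genes most like the mean of the 8 standardised genes, of 15957 candidates, were Fah, Rnaset2b, Fdps, Pdyn, Dnajc22, Il18bp, Kifc5b, Tmem98, Gins1 and Pcdhb3, with correlations from 0.83 to 0.78. Fdps, farnesyl diphosphate synthase, is the only one of these that encodes an enzyme of the pathway, and it had 0.81, or 0.71 without the 2 arrays.

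The other 14 enzymes of cholesterol synthesis, all tested, did not move as a group with irradiation. Over the 6 arms 2 rose and 3 fell, with a median of -0.04, against 0.01 over all genes. Of all genes 16.4% rose and 16.4% fell. Lbr, a sterol reductase of the nuclear envelope, fell by 0.37 ± 0.09 (adjusted p = 0.00797), and Ebp, the sterol isomerase, fell by 0.34 ± 0.04 (adjusted p = 0.000105). Hsd17b7 rose by 0.29 ± 0.07 and Fdps by 0.29 ± 0.07 (adjusted p = 0.00391 and 0.00818). Between IR and untreated lung 1 rose, Fdps, by 0.76 ± 0.18 (adjusted p = 0.0175), and 1 fell, Lbr, by 0.79 ± 0.23 (adjusted p = 0.0366). With IR 1 and IR+Ly+Imatinib 1 left out, 0 of the 14 passed there. Both calls were lost without IR 1, where Lbr differed by -0.34, and without the second untreated array, where Fdps differed by 0.56. That of Lbr was also lost without the first untreated array.

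With Su, over the 4 settings, 6 of the 14 fell and 0 rose, where 8.4% of all genes fell. Among them were Pmvk, phosphomevalonate kinase, which fell by 0.86 ± 0.07 (adjusted p = 1.43e-05), Mvd, which fell by 0.50 ± 0.15 and lost its call in 11 of the 16 fits without 1 array, Tm7sf2, which fell by 0.44 ± 0.10, and Ebp, which fell by 0.34 ± 0.05. Imatinib gave 3 lower and 0 higher, where 3.91% of all genes fell, with Pmvk falling by 0.59 ± 0.07 (adjusted p = 0.000525) and Ebp by 0.30 ± 0.05. In IR+Su against IR 6 of 14 fell, among them Fdps by 0.78 ± 0.18, and 1 rose, where 14.8% of all genes fell. Drug and slide cannot be told apart in these Su and Imatinib comparisons.

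Among 8 tested LXR targets and efflux genes, which serve the outflow of cholesterol, 5 rose and 1, Nr1h3, fell over the 6 arms, where 16.4% of all genes rose and 16.4% fell. Their median was 0.30, against 0.01 over all genes. Abcg5, a sterol exporter, rose by 0.76 ± 0.14 on a dim probe whose difference turned to -0.18 with normexp. Lpcat3, a phospholipid-remodelling enzyme, rose by 0.53 ± 0.09, and Abcg1 and Abca1, the exporters to lipoproteins, by 0.35 ± 0.08 and 0.35 ± 0.07. Between IR and untreated lung 4 rose, with Abcg1 at 1.10 ± 0.19, and 1 fell, and without IR 1 and IR+Ly+Imatinib 1 it was 2 and 0. Abcg1 lost its call there without IR 1, at 0.96. Among 9 storage and oxidation genes 4 rose and 0 fell over the 6 arms, led by Ch25h, cholesterol 25-hydroxylase, by 0.77 ± 0.18, and Cyp7b1, an oxysterol hydroxylase, by 0.71 ± 0.16. The macrophage marker levels given above moved with these genes too, and their part was not tested.

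The regulators of the pathway that passed over the 6 arms fell, by small amounts. Of 6 genes for sterol sensing and SREBP processing, 3 fell and 0 rose, where 16.4% of all genes fell and 16.4% rose. Srebf2, which encodes SREBP-2, fell by 0.19 ± 0.05 (adjusted p = 0.00936), Mbtps1, the first protease of SREBP, by 0.18 ± 0.04 (adjusted p = 0.00574) and Srebf1 by 0.17 ± 0.06 (adjusted p = 0.0393). The Srebf1 call was lost in most of the fits that leave out 1 array. Between IR and untreated lung 0 of 6 passed, as did 0 of 4 SREBP-2 targets outside synthesis in both comparisons. Of 12 fatty acid synthesis genes 5 rose and 2 fell over the 6 arms, against the same shares of all genes. Scd1, the stearoyl-CoA desaturase, rose by 0.62 ± 0.16 (adjusted p = 0.00792) and Fads2, a fatty acid desaturase, by 0.50 ± 0.08 (adjusted p = 0.000351). Of 7 genes of the isoprenoid branch 0 rose over the 6 arms and 1, Ggps1, fell by 0.20 ± 0.04 (adjusted p = 0.00158). The isoprenoid count changed when IR 1 and IR+Ly+Imatinib 1 were left out.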

How the data were processed

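RNA of 24 mouse lung samples was labelled with Cy3 and hybridised to single-colour Agilent arrays, per the labels' protocols. The deposited values are intensities of single spots from Agilent Feature Extraction 9.1.3.1, background-subtracted and detrended by the authors' scanner software, per the file headers, and not scaled between arrays. Here each processed signal was taken as log2 minus its array's 75th percentile, spots of a probe were averaged, and 619 probes with a flagged spot on any array were dropped, leaving 40555. Genes were named through RefSeq accessions (22951 probes), symbols (6659), synonyms (3105) or the file's own name (8459). The brightest probe stood for a gene, and a gene was tested where it was well above background on both arrays of a group (20410 of 27403 genes). limma 3.58.1 (R 4.3.3) was fitted to 12 group means with 12 residual degrees of freedom, with Benjamini-Hochberg adjustment and a threshold of 0.05, and was tested on simulated data. The 8 genes and all gene lists were chosen with earlier results of these data known. Members were described in every comparison. Of each other list the largest passing differences were named, up to 4, and from the comparisons described, and 1 gene of these lists is not reported here by name. One IR+Su sample is numbered 2 in its title and 1 in its source name, and the title was used. The alternatives were other background corrections, scalings, filters, probes and weights, blocks, the series value table, and arrays left out. The mean levels of marker lists for other cell types were computed in the same way, and those of macrophages, fibroblasts, endothelium, erythroid cells, B cells, dividing cells and type II cells are reported.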

Additional observations from a re-analysis of the deposited data

Results flagged for a closer look

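In some pairs of arms, all irradiated arrays of a gene moved in opposite directions, and the pairs were picked because of that. The p-values below are adjusted over genes and not for that choice, so they cannot decide whether the arms differ. The interaction test over all arms passed for 0 of the 8 genes. Dhcr7 was higher in both arrays with irradiation alone and lower in both with Su. The 2 irradiation differences differed by 1.23 ± 0.25, and limma fitted to all genes gave an adjusted p of 0.0183 for that difference, with 10.2% of all genes called. Without IR 1 and IR+Ly+Imatinib 1 it was 0.94 ± 0.21 (adjusted p = 0.0525). The Ly and Su arms differed by 0.77 for Dhcr7 (adjusted p = 0.174) and the Ly+Imatinib and Su arms by 0.57 (adjusted p = 0.475).

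Idi1 rose in the arm without drug and was lower with irradiation in the Su arm. Its irradiation differences differed by 0.81 ± 0.24 between these arms (adjusted p = 0.0493), and by 0.63 ± 0.24 without the same 2 arrays (adjusted p = 0.165). Between the arm without drug and Ly+Su they differed by 0.78 (adjusted p = 0.0846). Between Ly and Su the difference was 0.48 (adjusted p = 0.353), and between Ly and Ly+Su it was 0.45 (adjusted p = 0.664).

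Lss had higher irradiated arrays in the Ly arm and lower ones in 4 other arms. The Ly arm differed by 0.58 from the Imatinib arm (adjusted p = 0.46), by 0.30 from Su (adjusted p = 0.497), by 0.58 from Ly+Imatinib (adjusted p = 0.501) and by 0.55 from Ly+Su (adjusted p = 0.482). None of these 4 passed, and the probes of Lss disagree in direction. Groups held 2 arrays each, so no array was tested as an outlier of its group.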

How the results depend on the processing

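Counts are of the 8 genes called. They were compared under 13 alternatives and with each of 24 arrays left out. Keeping flagged spots, median centring and leaving out IR 1 with IR+Ly+Imatinib 1 were chosen after seeing the data. Over the 6 arms the count was 3 and stayed at 2 or 3, except with normexp, where it was 1. Between IR and untreated lung it was 3 and became 0 with array weights, with the 2 groups alone and without IR 1 and IR+Ly+Imatinib 1, 1 without the filter on dim probes, and 2 with normexp or median centring. Within single arms it was 3 and became 6 with array weights, 5 with normexp, 2 without the 2 arrays and 1 without the filter; with the 2 groups of each arm alone it was 3, all in the Su arm, where 6182 of 20410 genes passed, against 302 in Ly+Su and 0 in the other 4 arms. Against IR it was 6 of 40 and became 0 with array weights and with the groups alone, 1 without the 2 arrays, 2 with normexp, 3 with quantile normalization, 4 without the filter, 8 with flagged spots kept and 19 with the median of all probes as the centre. Array weights were equal within each group and lowest for IR, at 0.18, against 0.59 to 2.77 in the other groups. The reported fit assumes 1 spread for all groups, and these weights go against that. With array weights 1 of all genes passed between IR and untreated lung and 193 of 102050 tests against IR. With the groups alone it was 0 in both. The counts of 0 there thus say nothing about the 8 genes in particular. Drug comparisons and the interaction stayed at 0 in all of these. Leaving out 1 array at a time gave 2 to 3 over the 6 arms, with Dhcr7 lost in 17 of 24, 0 to 5 for IR against untreated, 0 to 6 within arms, 1 to 18 against IR, 0 to 4 for Ly against no drug, 0 to 1 for Ly, Imatinib and Su pooled, and 0 to 2 for the interaction. The highest counts came without IR replicate 2, which leaves IR 1 as the only IR array. The lone array of a group is then assumed to vary like the other groups.

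Hmgcs1 reversed with normexp, to -0.14 over the 6 arms and -0.91 for IR against untreated. Insig1 reversed without IR 1, with or without the other array, to 0.16 for IR against untreated and -0.14 for Ly against no drug. With 1 array left out at a time these values ran from -1.44 to 0.16 and from -0.14 to 0.67. Of the other genes, normexp gave -0.18 and -0.87 for Abcg5 over the 6 arms and in IR, 0.074 for Nr1h3 in IR, and -0.29 and -0.17 for Mbtps2 and Pggt1b with Su. Hmgcs1 became called between IR and untreated lung with flagged spots kept (0.54, adjusted p = 0.0219), and Lss over the 6 arms with median centring (-0.25, adjusted p = 0.0141), where Dhcr7 was 0.07 (adjusted p = 0.455). The cause was not tested. A further 40 differences of single genes were called in no setting, and 21 of them changed sign in some setting with all arrays.

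Median centring moved the median of all genes by up to -0.35 in the comparisons against IR and to -0.13 over the 6 arms. The share of all called genes that rose over the 6 arms was then 22.7%, with normexp 40.1% and in the reported setting 50.1%. Against IR it was 14.0% to 41.7% with median centring, and 42.8% to 71.8% as reported. Changes against IR are thus relative to the 75th percentile.

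Replicate numbers did not pair the samples: deviations of same-numbered arrays had a median correlation of 0.04 over 66 pairs of groups, between -0.20 and 0.25, with 20 over 0.1. With the replicate number as a block the counts were 3, 3, 3 and 8 over the 6 arms, for IR against untreated, within arms and against IR. Slide as a random block could be fitted only for the 6 arms, with irradiation and arm as terms (correlation within slides 0.14), where the count was 2. In the other comparisons slide is a sum of groups and was not run.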
